A study of Danio rerio with 4 samples.

Results

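The matrix metalloproteases (MMPs), the ADAM and ADAMTS proteases and their inhibitors, the TIMPs, were followed in heat-shocked zebrafish embryos with and without a mutant human RAS transgene. Features were taken as members when their zebrafish symbol in the authors' deposited annotation began with mmp, timp or adam, or, where that symbol was empty, when their human ortholog name did. This gave 46 of 37176 array features, 21 by zebrafish symbol and 25 by human ortholog name alone, under 32 distinct names. Features named only by a human ortholog are called here by that human name in capitals, except mmp23bb and mmp30, which were named through their RefSeq accession, and the deposited annotation does not tell which zebrafish gene each of them measures.

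Whole-embryo RNA was measured on 4 arrays labelled with Cy3, 2 for each genotype. The transgenic group carried Tg(hsp70-hRASG12V), human RAS with the G12V change driven by the heat-inducible hsp70 promoter, and the design text calls these embryos heterogeneous. The wild-type group, tagged ab in the sample titles, was labelled wild type, with no allele given. All embryos were reared at 28.5 °C. At 24 hours post fertilisation they received a heat shock of 1 h at 37 °C, and they were collected at 30 hours, each array holding a pool of 50 embryos, per the labels and the design text. The design text speaks of triplicates, and the 2 arrays per genotype given were all analysed. Because both genotypes were heat shocked, the comparison holds no embryos without heat shock. The labels do not say whether the genotypes shared parents, clutch or handling, and such differences and the transgene cannot be told apart.

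MMPs are zinc proteases made as inactive precursors that, once cut, degrade collagen, gelatin and other matrix proteins outside the cell. Some are secreted and others are anchored in the plasma membrane. ADAM proteases sit in the membrane and mostly shed the outer parts of other membrane proteins, such as growth factors and adhesion molecules, whereas ADAMTS proteases are secreted and cut proteoglycans and procollagen, and ADAMTS-like (ADAMTSL) proteins share their matrix-binding domains without the protease. TIMPs are small secreted proteins that plug the active site of MMPs and of some ADAM and ADAMTS enzymes. In vertebrate embryos these proteins take part in tissue remodelling, cell migration and wound healing, and several MMP genes are known as targets of AP-1 factors downstream of RAS and ERK.

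The only collagenase feature (MMP13), the gelatinase gene mmp9 and part of the TIMP2 features gave the largest rises among the members. The membrane MMPs gave no call in the main limma fit. Near the threshold, 2 of them passed as lower under some alternative settings, and the MMP15 feature passed as higher under some. Of the 46 features, 14 rose, 2 fell and 30 did not pass an adjusted p of 0.05 (limma, Benjamini-Hochberg over all 37176 features). Over all features 17.6% passed, 10.3% as higher and 7.28% as lower in the transgenic embryos; of the members 34.8% passed, 30.4% as higher and 4.35% as lower. Of the risen members 12 differed at least 2-fold, where 6.93% of all features passed with a rise of that size, and both fallen members differed by as much. With each array centred on its median, which moved the median of all features to -0.09, 12 members rose and 4 fell, and the split over all features went from 3830 higher and 2708 lower to 3316 and 3630. The median log2 fold change was 0.17 over the members and 0.01 over all features, and the median size without sign was 0.37 and 0.36. Members are not independent, since several features share a name: the 16 calls fell on 13 names. With the feature of highest mean level standing for each name, 8 of 32 rose and 1 fell, against 9.21% higher and 7.4% lower among 22482 names measured. In limma fits without either transgenic array no feature of the whole table passed (0 of 37176, with 7482 and 7548 at an unadjusted p under 0.05), so every call below rests on having both of them.

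**Figure D1:**
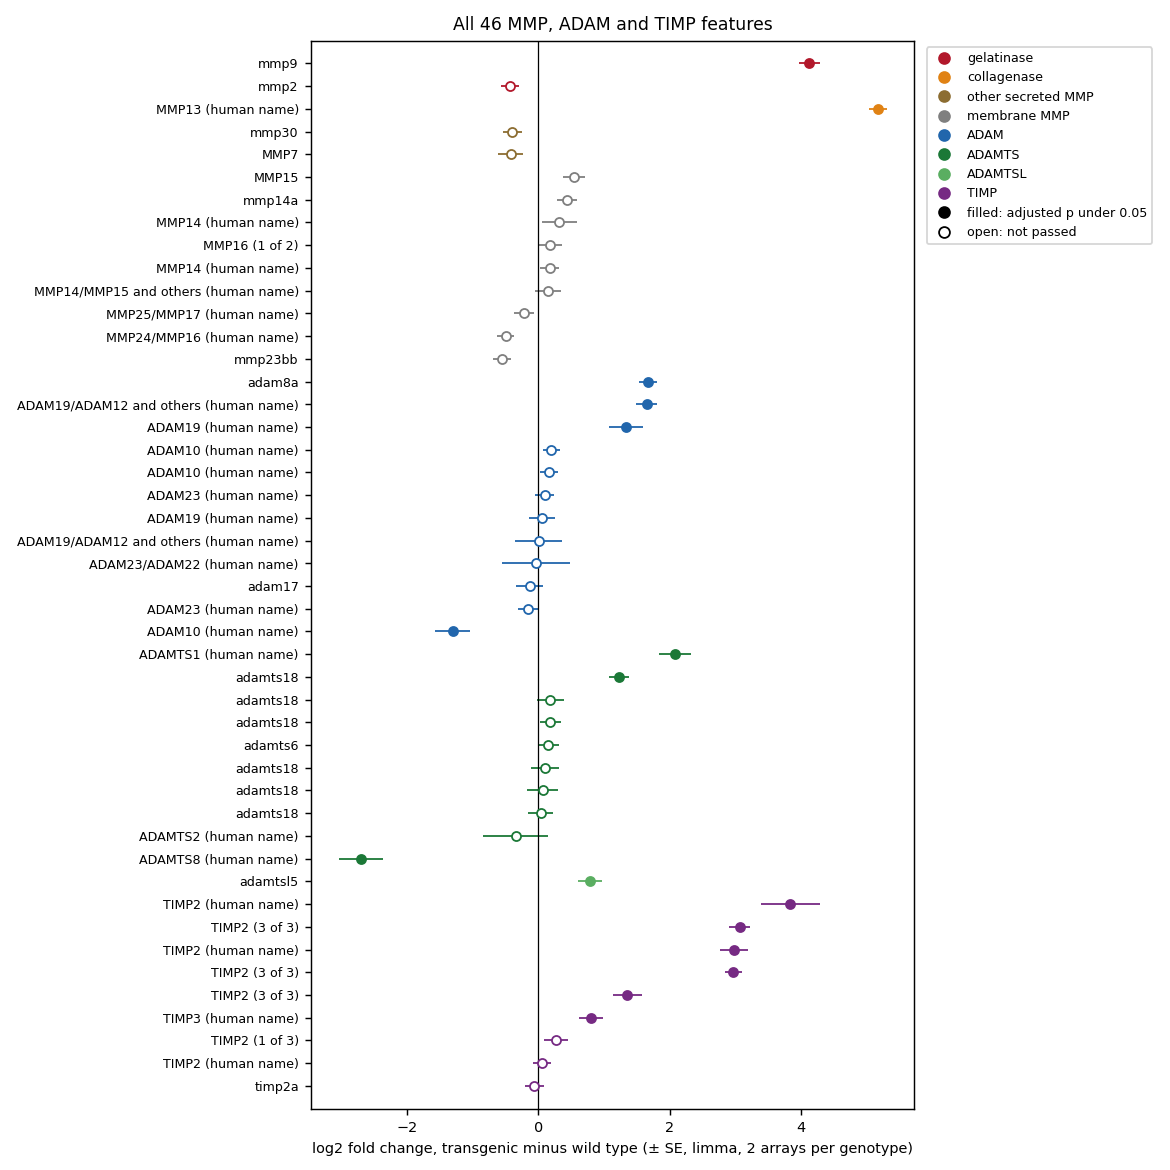
Log2 fold change (transgenic minus wild type, ± moderated SE of limma, 2 arrays per genotype) of each of the 46 features, coloured by group, with filled points for an adjusted p under 0.05. The MMP13 feature (5.18), mmp9 (4.13) and the TIMP2 features up to 3.85 lie far to the right, the 9 membrane MMP features lie between -0.56 and 0.54, and ADAMTS8 (-2.71) and 1 ADAM10 feature (-1.31) are filled on the left.

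The arrays were close in overall signal, with medians of 9.62 and 9.61 (log2) in the transgenic arrays and 9.50 and 9.55 in the wild-type arrays. Their lower quartiles were 7.17 and 7.12 against 7.08 and 7.05. In both measures the transgenic arrays lay slightly above the wild-type arrays. Across features, which are not independent replicates, the replicates correlated at 0.996 (transgenic) and 0.988 (wild type), and arrays of different genotype at 0.966 to 0.973 (Pearson's r). Of 32 tissue markers 21 were measured, for blood, muscle, neurons, epidermis, notochord, endothelium, lens and heart, and 1 or more markers of each of these tissues lay above the lowest lower quartile on all arrays. Among these 21, the epidermal cadherin gene cdh1 rose by 1.34 ± 0.14 and the lens factor gene foxe3 fell by 1.55 ± 0.16. The other epidermal markers measured, krt4 (-0.16 ± 0.14) and krt5 (-0.36 ± 0.14), lay below 0 without passing by brightest feature, and 1 of the 3 krt5 features passed as lower. Of the other lens markers, mipb (0.38 ± 0.18) lay above 0 and cryba2a (-0.23 ± 0.16) and cryaa (-0.49 ± 0.26) below, none passing. The heart myosin gene myl7 read 5.96 to 6.43, below that quartile. In whole embryos, fewer cells of a type and less RNA per cell cannot be told apart.

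Among secreted MMPs, the collagenase feature with the human name MMP13 had the largest rise of all members. Collagenase 3, the product of human MMP13, cuts fibrillar collagen. Its level was 13.48 and 13.48 (log2) in the transgenic arrays and 8.25 and 8.36 in the wild-type arrays. Both transgenic arrays lay far above both wild-type arrays, and the spread within each genotype was small beside the gap. The log2 fold change was 5.18 ± 0.14, or 36.2-fold, with a limma adjusted p of 0.0068 (n = 2 arrays per genotype). This was rank 7 of all features by signed fold change. Throughout, ± after a fold change is limma's moderated SE, which combines a feature's own spread with that of all features.

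The gelatinase gene mmp9, whose product cleaves denatured collagen and basement membrane collagen and which is known in zebrafish from leukocytes and wounded epidermis, read 13.84 and 14.09 in the transgenic arrays and 9.89 and 9.78 in the wild-type arrays. Its arrays did not overlap either, which holds for 67.6% of all features, and its log2 fold change of 4.13 ranked 12 of all features. The other gelatinase gene, mmp2, known from mesenchyme and activated at the cell surface by a membrane MMP, went the opposite way in value without passing. It read 12.73 and 12.78 in the transgenic arrays and 13.24 and 13.14 in the wild-type arrays, a log2 fold change of -0.43 ± 0.14 (adjusted p = 0.095). With a trend on mean level in eBayes, the adjusted p of mmp2 was 0.023.

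The remaining secreted MMPs did not pass. The level of mmp30, paired with human MMP10 in the authors' deposited table, was 11.53 and 11.68 in the transgenic arrays against 12.06 and 11.95 in wild type (-0.40 ± 0.15, adjusted p = 0.13). A feature with the symbol MMP7, named for the small protease matrilysin and paired with human MMP12 in the same table, read 3.02 to 3.69 on all arrays, below the lowest lower quartile, so its difference (-0.42 ± 0.19) carries an unknown share of background. In value, then, the secreted group held 2 large rises and 3 small differences below 0.

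Leukocytes are a known source of MMP9, MMP13 and ADAM8 proteins, and their markers were looked at beside these genes. Of 12 measured of 18 leukocyte markers, csf1ra, the macrophage and pigment cell growth factor receptor gene (1.74 ± 0.14, dim in the wild-type arrays), and cyba, which encodes a part of the phagocyte oxidase (1.53 ± 0.30), rose, 0 fell and 10 did not pass. The share called was 16.7%, beside 16.6% of the 22482 names measured. In value 8 of the 12 lay below 0 and 4 above, with a median of -0.11. The summed linear level of the 12 was 10971 to 12412 in the transgenic arrays and 9146 to 10474 in the wild-type arrays. In that sum the brightest gene, npsn, weighs most, and it did not pass (0.30 ± 0.20, adjusted p = 0.33). The macrophage gene mpeg1.1 read 6.80 and 7.13 with the transgene and 7.61 and 7.30 without it (-0.50 ± 0.20, adjusted p = 0.14). The macrophage receptor gene marco read 4.72 and 4.96 against 5.13 and 5.88 (-0.66 ± 0.28, adjusted p = 0.16). Both genes were dim, mpeg1.1 in the transgenic mean and marco in both genotypes, so their differences carry an unknown share of background. Of the 12 markers, 6 had a genotype mean below the lowest lower quartile. The part of leukocytes in the rises of mmp9, MMP13 and adam8a was not tested.

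**Figure D2:**
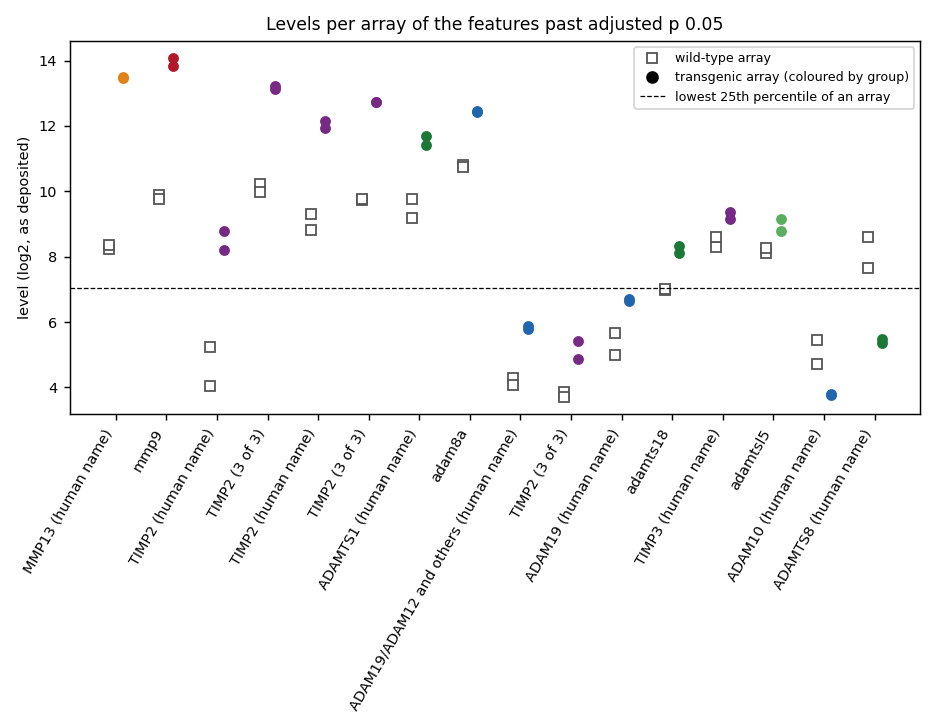
Levels (log2, as deposited) of the 16 features past an adjusted p of 0.05, with 2 open squares for the wild-type arrays and 2 filled circles for the transgenic arrays, ordered by fold change. None of the 16 shows an overlap between genotypes, and neither do 67.6% of all features. Of the 16, 7 have a genotype mean below the dashed line at 7.05, the lowest lower quartile of the arrays.

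Among the inhibitors, TIMP2 features split into risers and features near 0. TIMP2 inhibits MMPs and, in mammals, also helps a membrane MMP to activate MMP2. The gene called TIMP2 (3 of 3) in the authors' deposited table rose on all 3 of its features. Its feature ENSDART00000055089 read 13.21 and 13.13 in the transgenic arrays and 10.21 and 9.99 in the wild-type arrays, a log2 fold change of 3.07 ± 0.15 (8.39-fold, adjusted p = 0.0068). The second, ENSDART00000102064, read 12.73 and 12.72 against 9.74 and 9.76, a log2 fold change of 2.98 ± 0.14. The last, ENSDART00000102062, was dim, with 5.42 and 4.87 against 3.87 and 3.70, and rose by 1.36 ± 0.23. The call of this dim feature ended when 50 was added to the linear values before the log (0.43, adjusted p = 0.075).

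Of the features with no zebrafish symbol and the human name TIMP2, ZV700S00001714 read 12.16 and 11.94 in the transgenic arrays against 9.30 and 8.83 in wild type (2.99 ± 0.21, adjusted p = 0.0091). ZV700S00003857 read 8.78 and 8.20 against 5.25 and 4.04 (3.85 ± 0.45, adjusted p = 0.013), and its wild-type level lies where background is an unknown share of the signal. Whether these 2 features measure the same gene as TIMP2 (3 of 3) is not given in the deposited annotation. The 5 risen features count TIMP2 (3 of 3) 3 times, and more often if these 2 features measure it too.

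The other 3 TIMP2 features did not pass. The gene timp2a read 10.85 and 10.96 in the transgenic arrays against 10.96 and 10.98 in wild type (-0.06 ± 0.14, adjusted p = 0.78), and the third feature with only the human name TIMP2 read 11.32 and 11.35 against 11.30 and 11.27 (0.05 ± 0.14, adjusted p = 0.82). TIMP2 (1 of 3) read 11.82 and 12.10 against 11.55 and 11.83 (0.27 ± 0.18, adjusted p = 0.34), with overlapping genotypes. The difference between the risen and the other TIMP2 features was itself not tested. The 4 brighter risen features lay at 2.98 or above and the others at 0.27 or below, whereas the dim ENSDART00000102062 lay between them, and with 50 added to the linear values it was at 0.43 beside 0.26 for TIMP2 (1 of 3).

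TIMP3, the inhibitor that binds to the matrix and in mammals restrains ADAM17, rose less. Its feature read 9.15 and 9.36 in the transgenic arrays and 8.29 and 8.61 in the wild-type arrays, a log2 fold change of 0.80 ± 0.18 (1.75-fold, adjusted p = 0.045). The call ended under quantile normalization (0.72, adjusted p = 0.053), median centring (0.71, adjusted p = 0.053) and without wild-type replicate 1 (0.64, adjusted p = 0.057). In all, 6 of 9 TIMP features rose (66.7%) and 0 fell, where 10.3% of all features rose and 7.28% fell. These features are not independent, as the 9 stand under 5 names. Of the 6, 3 are features of the same gene, TIMP2 (3 of 3). The 2 risen features with only the human name TIMP2 may measure it too. The median of the 9 was 1.36, which is the value of the dim ENSDART00000102062.

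**Figure D3:**
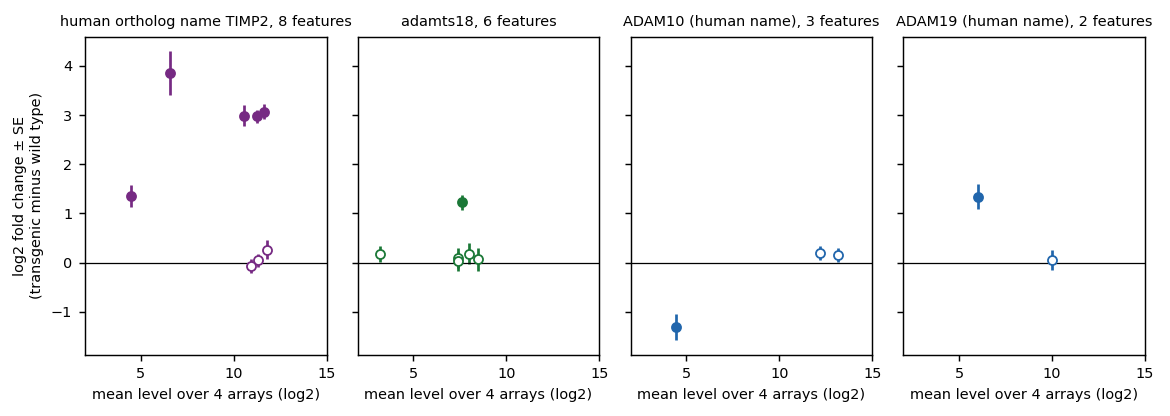
Log2 fold change (± SE) against mean level over the 4 arrays (log2) for features that share a name, with filled points for an adjusted p under 0.05. The 5 risen TIMP2 features lie from 1.36 to 3.85 and the other 3 within 0.27 of 0, and in adamts18, ADAM10 and ADAM19 a single filled point stands away from features near 0.

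Of 12 ADAM features 3 rose and 1 fell. The gene adam8a, whose human counterpart encodes a protease of leukocytes that sheds adhesion molecules, read 12.45 and 12.42 in the transgenic arrays and 10.79 and 10.74 in the wild-type arrays. The replicates of each genotype lay within 0.05 of each other, and the log2 fold change was 1.67 ± 0.14 (3.18-fold, adjusted p = 0.0091). No other ADAM call had a bright feature behind it.

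Features named at least in part for meltrins gave 2 of the rises. Meltrins are the ADAM12 and ADAM19 proteases, known from muscle fusion and neuregulin shedding in mammals. The deposited table pairs ZV700S00000137 with ADAM19, ADAM12, D26579, AK128430 and TUBGCP2, which are not all ADAM names. This feature read 5.88 and 5.78 in the transgenic arrays and 4.29 and 4.07 in the wild-type arrays, a log2 fold change of 1.65 ± 0.16. The ADAM19 feature ENSDART00000083253 read 6.63 and 6.69 against 4.98 and 5.66, a log2 fold change of 1.34 ± 0.26. All of these levels lie below the lowest lower quartile. The ADAM19 feature with the neighbouring identifier, ENSDART00000083255, read 9.92 and 10.14 against 9.77 and 10.19 and did not pass (0.05 ± 0.20, a value that turned to -0.04 under quantile normalization and median centring). A further feature paired with several meltrin and ADAM names, ZV700S00005804, differed by 0.01 ± 0.36.

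No member feature of the general sheddases ADAM10 and ADAM17 passed as higher in limma. For ADAM10, the protease that opens Notch receptors to their final cut, ZV700S00003126 read 13.19 and 13.26 with the transgene and 13.10 and 13.02 without it (0.16 ± 0.14), and ZV700S00006130 read 12.32 and 12.26 against 12.08 and 12.10 (0.20 ± 0.14). Neither passed. The remaining ADAM10 feature fell, from 5.45 and 4.73 in the wild-type arrays to 3.79 and 3.77 in the transgenic arrays (-1.31 ± 0.27, adjusted p = 0.036). All 4 of its readings are dim, and the call ended with 50 added to the linear values (-0.41, adjusted p = 0.10). The gene called adam17, named for the sheddase of TNF and of EGF receptor ligands, read 9.41 and 9.73 against 9.51 and 9.90 (-0.13 ± 0.21, adjusted p = 0.68). The ADAM23 and ADAM22 features, named for neuronal ADAM proteins without protease activity, differed by -0.16 to 0.09. For the feature paired with both names the wild-type readings were 7.76 and 9.32, and its call and direction hung on them: it passed as lower without wild-type replicate 1 (-0.81, adjusted p = 0.031) and as higher without wild-type replicate 2 (0.75, adjusted p = 0.029).

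Secreted ADAMTS proteases moved in both directions. The ADAMTS1 feature, named for a protease that cuts the proteoglycans aggrecan and versican, read 11.43 and 11.69 in the transgenic arrays and 9.19 and 9.77 in the wild-type arrays. The genotypes did not overlap, which holds for 67.6% of all features, and the log2 fold change was 2.08 ± 0.24 (4.23-fold, adjusted p = 0.013). The ADAMTS8 feature went the other way, from 8.61 and 7.65 in the wild-type arrays to 5.50 and 5.35 in the transgenic arrays (-2.71 ± 0.34, 6.54-fold, adjusted p = 0.015). Its transgenic mean lies below the lowest lower quartile, so the size of the fall is uncertain, and with 50 added to the linear values it was -1.84.

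The 6 features of adamts18 disagreed. ENSDART00000099232 read 8.12 and 8.31 in the transgenic arrays and 6.97 and 7.01 in the wild-type arrays and rose by 1.23 ± 0.15 (adjusted p = 0.014). Its wild-type mean lies below the lowest lower quartile. The other 5 features differed by 0.03 to 0.18 with adjusted p from 0.46 to 0.92, and the genotypes overlapped on each of them. Among these, ENSDART00000092657 was dim, at 2.99 to 3.37 on all arrays, so its difference carries an unknown share of background. The 6 features may represent different transcripts or parts of the gene, which the files do not describe. The gene adamts6 differed by 0.15 ± 0.16, and the ADAMTS2 feature, named for a procollagen protease, by -0.35 ± 0.50, with wild-type readings of 4.15 and 5.61, and it passed as lower without wild-type replicate 1 (-1.07, adjusted p = 0.035). The ADAMTS-like gene adamtsl5 read 8.78 and 9.15 in the transgenic arrays and 8.10 and 8.25 in the wild-type arrays and rose by 0.79 ± 0.19. Its adjusted p of 0.0497 was the last inside the threshold, and its call ended under quantile normalization (0.70, adjusted p = 0.063), median centring (0.69, adjusted p = 0.062), an eBayes trend (adjusted p = 0.051) and without wild-type replicate 1 (0.71, adjusted p = 0.073).

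Membrane MMPs, some of which activate MMP2 and cut matrix at the cell surface, had 9 features. Of these 0 rose and 0 fell in limma at an adjusted p of 0.05, where 10.3% of all features rose and 7.28% fell. The MMP15 feature, paired with human MMP16, read 10.85 and 11.06 in the transgenic arrays against 10.31 and 10.52 in wild type (0.54 ± 0.17, adjusted p = 0.085). The gene mmp14a, for the membrane protease best known as the activator of MMP2, read 11.17 and 11.35 against 10.76 and 10.88 (0.44 ± 0.15, adjusted p = 0.11). On the other side, mmp23bb, for a protease with a cysteine-rich tail in place of the usual hemopexin domain, read 9.47 and 9.51 with the transgene, both below the wild-type arrays at 10.05 ± 0.07 (SD, n = 2) (-0.56 ± 0.14, adjusted p = 0.054), and the feature paired with MMP24 and MMP16 read 9.50 and 9.55 against 10.04 and 10.02 (-0.50 ± 0.14, adjusted p = 0.066). These last 2 features passed as lower under quantile normalization (-0.65 and -0.59, adjusted p = 0.040 and 0.046) and median centring (adjusted p = 0.042 and 0.048), with dim features left out (0.032 and 0.040) and with 50 added to the linear values (0.034 and 0.038). With an eBayes trend, MMP15 passed as higher (adjusted p = 0.042) and mmp23bb as lower (0.047), as they did without wild-type replicate 2 (0.046 and 0.037). In these 4 the genotypes did not overlap, as was the case for 67.6% of all features and for 30 of the 46 members. The other 5, paired with MMP14, MMP16, MMP15, MMP17, MMP24 and MMP25 in the deposited table, differed by -0.22 to 0.32. Among them was the brightest of the 9, MMP16 (1 of 2), paired with human MMP14. It read 12.27 and 12.49 in the transgenic arrays against 12.05 and 12.36 in wild type (0.17 ± 0.18, adjusted p = 0.53 in limma).

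By the q-values of the authors' deposited table, 30 of the 46 members were under 0.05, or 65.2%, where 67.7% of all features were. A q-value under 0.05 in either direction was therefore about as frequent among the members as among all features. By feature, the split by direction differed. Of the 46 members 22 were higher and 8 lower, whereas 12981 (34.9%) and 12169 (32.7%) of all 37176 features were. Features that share a name are not independent, and by brightest feature 13 of the 32 member genes were higher and 7 lower.

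The genes that act on these proteases were measured in part. Of 28 activator and inhibitor genes outside the families, 12 were measured. By brightest feature 2 rose (16.7%), 1 fell (8.33%) and 9 were not called, where 9.21% of 22482 names rose and 7.4% fell. The rises were in furina, a convertase gene whose product cuts the precursors of membrane MMPs and ADAMs (11.90 and 12.05 with the transgene, 10.32 and 11.09 without it, 1.26 ± 0.28, adjusted p = 0.044), and in htra1b, a secreted serine protease gene (1.03 ± 0.15). The meprin protease gene mep1a.2, dim in both genotypes, fell by 1.05 ± 0.24, a call that ended with 50 added to the linear values (-0.64, adjusted p = 0.065). The brightest htra1a feature did not pass (-0.40 ± 0.15), although its other feature did (-0.73). The plasminogen gene plg differed by 0.43 ± 0.15 on 1 feature and -0.44 on the other, and neither passed.

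Of 35 genes for sheddase partners and substrates, 17 were measured, of which 5 rose (29.4%), 1 fell (5.88%) and 11 had an adjusted p above the threshold. Of the 22482 names, 9.21% rose and 7.4% fell. The rises were in the shed receptor and adhesion genes tnfrsf1a (1.76 ± 0.14) and l1camb (1.79 ± 0.30), in the EGF-family ligand gene nrg1 (0.86 ± 0.14), in tspan5b, a tetraspanin gene whose mammalian counterpart escorts ADAM10 (0.81 ± 0.18, not called under median centring or without wild-type replicate 1), and in rhbdf1a, an iRhom gene (0.77 ± 0.14). iRhoms carry ADAM17 to the cell surface. The paralog rhbdf1b fell by 0.88 ± 0.16, so the 2 iRhom genes measured went opposite ways. The genes btc and tspan15 had features that disagreed on the call. The brightest feature of btc, an EGF-family ligand gene, was not called (-1.30 ± 0.34, adjusted p = 0.060) while its second feature was (-1.64), and for the tetraspanin gene tspan15 these values were 0.12 ± 0.17 and 0.78. The TNF gene tnfa read 3.62 to 3.74 on all arrays, near the bottom of the range. Of 42 structural matrix substrates, 19 were measured, 2 rose (10.5%) and 3 fell (15.8%). They were the latent TGF-beta binding protein gene ltbp3 (0.89 ± 0.14) and the proteoglycan gene bcan, dim in both genotypes (0.73 ± 0.17, adjusted p = 0.048), and, downward, hapln3, a hyaluronan link protein gene (-1.07 ± 0.16), and the small leucine-rich proteoglycan genes fmoda (-0.80 ± 0.16) and lum (-0.70 ± 0.15). The call of bcan ended under quantile normalization, median centring, an eBayes trend, 50 added to the linear values and the replicate block (adjusted p from 0.055 to 0.091), and that of lum under the block (0.052) and without wild-type replicate 1 (0.052). The medians of the 3 lists were 0.20, 0.20 and -0.15.

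**Figure D4:**
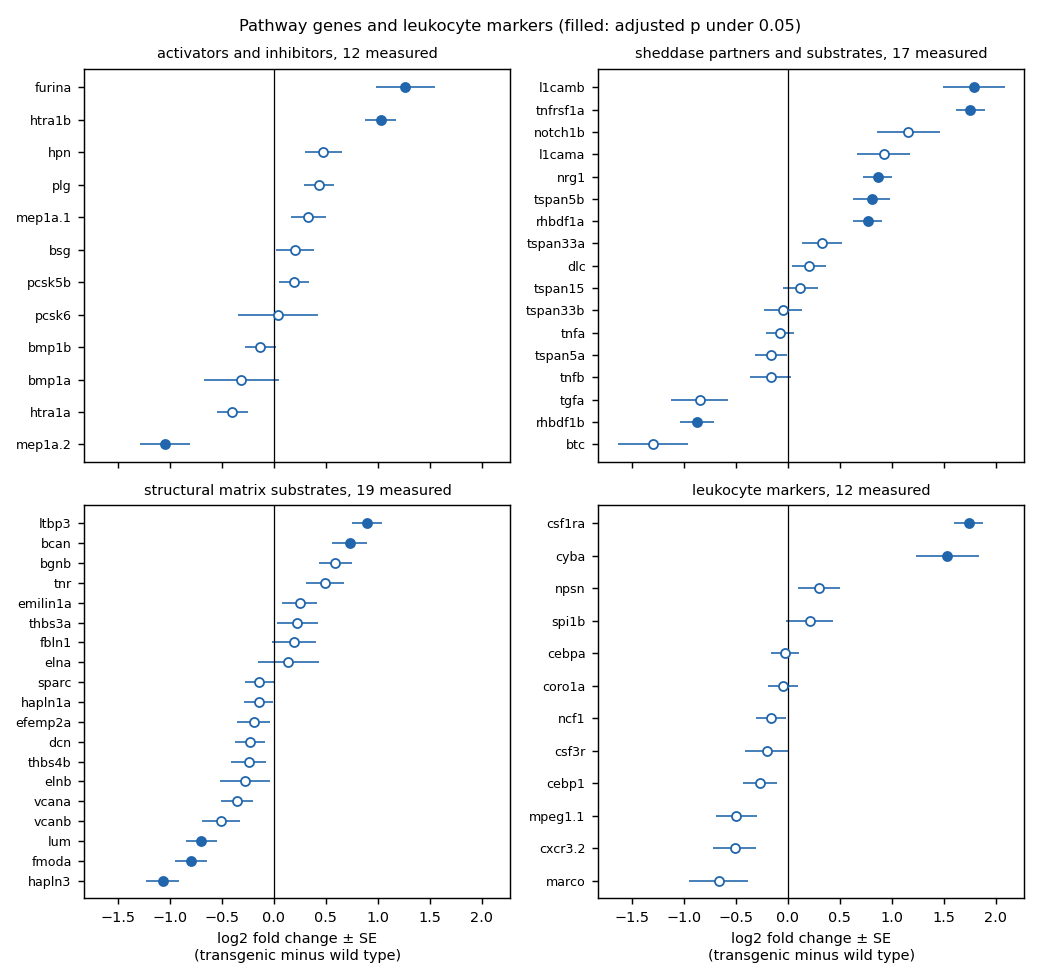
Log2 fold change (± SE) of the measured genes of the 3 pathway lists and of the leukocyte markers, by brightest feature, with filled points for an adjusted p under 0.05. Filled points lie on both sides of 0 in each pathway list, with l1camb (1.79) and tnfrsf1a (1.76) highest, and among the leukocyte markers csf1ra and cyba stand apart from 10 genes between -0.66 and 0.30.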

How the data were processed

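The authors deposited expression values per array feature, taken as log2 values because their range is that of scanner intensities on that scale, no base being stated. For the scanner, probe summarisation, background correction and normalization the sources used here give nothing, and no detection call, slide or scan date was used here. Per the file headers, the authors also deposited each feature's log fold change, with no base given, and its q-value. That fold change equalled the difference of genotype means within 9.8e-08.

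Transgenic minus wild type was fitted in R 4.3.3 with limma 3.58.1 (lmFit, then eBayes) over all 37176 features, with 2 residual and 2.92 prior degrees of freedom and Benjamini-Hochberg adjustment at 0.05. The step was tested on simulated data. The number of arrays limits the precision, and nothing in the labels says whether replicates came from separate clutches. The SEs and p-values rest on limma's moderated variance, in which each feature's spread between these pools is drawn toward that of all features. They measure no spread beyond that between these pools.

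Symbols were updated through RefSeq (GRCz12tu), used for names alone. Of the 21 members with a zebrafish symbol, 11 matched a current symbol and 2 a synonym, and 8 kept the deposited name, while 2 more members were named by RefSeq accession. The brightest feature stood for a gene in counts of genes. The named genes were every member with a feature past the threshold, every gelatinase, collagenase and TIMP, and the brightest member of each other group. The remaining members were added for completeness, some of them only within a range. Members, lists and tests were chosen with earlier results of these data known. The alternatives were quantile normalization, median centring, leaving out features below the 25th percentile of mean level, an eBayes trend, log2(value + 50), the replicate number as a block, the authors' q-values, an adjusted p of 0.10, the mean of a gene's features, leaving out features named by human ortholog alone, and leaving out each array in turn.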

Additional observations from a re-analysis of the deposited data

How the results depend on the processing

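No called feature changed sign in the refits that tested it, which were 10 for most and 9 for the 6 features that the filter on dim features removed. Of the 16, 8 passed in all 8 refits that kept both transgenic arrays, and 4 of the filtered features passed in all 7 that tested them. The other 4 are the dim ADAM10 and TIMP2 (3 of 3) features, TIMP3 and adamtsl5, with values given above. The cause of the changes below was not tested.

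With each array left out in turn, member features that rose numbered 0 to 16 and those that fell 0 to 4; member genes gave 0 to 10 and 0 to 3. Activator and inhibitor genes gave 0 to 3 and 0 to 1, sheddase partner and substrate genes 0 to 7 and 0 to 1, structural matrix genes 0 to 3 and 0 to 3. Every 0 came from limma fits without a transgenic array, where 14 members were higher and 2 lower at an unadjusted p under 0.05 without replicate 1, and 12 and 2 without replicate 2. Without wild-type replicate 1 or 2, 4 member features and 3 member genes fell. Over all features 4921 and 7047 then rose and 3428 and 5116 fell.

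Fallen member features numbered 4 under quantile normalization, median centring and an eBayes trend, 3 with 50 added, 5 at an adjusted p of 0.10 and 4 with the relatives added. Under both scalings, without dim features and with 50 added, mmp23bb and the MMP24 and MMP16 feature were among them. Fallen member genes numbered 3 under the first 3 of these and with 50 added, 2 without dim features and with the mean of a gene's features, and 4 at 0.10. Without features named by human ortholog alone, 7 member features and 4 member genes rose and 0 fell in limma. By the authors' q-values, 22 member features rose and 8 fell, for member genes 13 and 7, for activators and inhibitors 6 and 3, for sheddase partners and substrates 9 and 4, and for structural matrix genes 6 and 10. Fallen activators and inhibitors numbered 0 in limma without dim features and with 50 added. Fallen sheddase partners and substrates numbered 2 under quantile normalization, median centring, the trend, without dim features and with the mean of features, and 3 at 0.10. Risen structural matrix genes numbered 1 under quantile normalization, median centring, the trend and 50 added, bcan being the call lost, and 3 at 0.10. An eBayes trend called 5315 features higher and 3976 lower over the whole table.

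Same-numbered arrays share only a number in the labels, and their deviations from the genotype means correlated at 0.21 over all features. With the replicate number as a block, 14 member features rose and 2 fell, 7 sheddase partners and substrates rose and 2 fell, and 1 structural matrix gene rose and 2 fell.

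Values that turned sign belonged to features that had not passed. In this order, quantile normalization and median centring gave -0.0438 and -0.0417 for ADAM19 (ENSDART00000083255), -0.0172 and -0.0262 for adamts18 (ENSDART00000004120), -0.0631 and -0.0601 for adamts18 (ENSDART00000017949), and -0.0148 and -0.0433 for TIMP2 (AY324194.1). With each array left out in turn, ADAM19 (ENSDART00000083255) ran from -0.16 to 0.26, being below 0 without transgenic replicate 2 (-0.0593) or wild-type replicate 1. Of the adamts18 features, ENSDART00000004120 ran from -0.19 to 0.32, ENSDART00000012409 from -0.15 to 0.34, ENSDART00000017949 from -0.18 to 0.24 and ENSDART00000092666 from -0.0152 to 0.38. The first and the third of these 4 were also below 0 without transgenic replicate 2 (-0.11 and -0.0135).

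No detection call was used here, so a level below the lower quartile carries an unknown share of background, and 7 of the 16 called features have such a level in a genotype.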

Other observations

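A further 37 features had a family name as human ortholog or updated symbol, but a clone, zgc, LOC or accession name as zebrafish symbol. They so fell outside the rule for members. Among them are 2 features with the updated name zpd, which is no family name, paired with several membrane MMPs, and neither passed. Of the 37, 5 rose, 2 fell and 30 did not pass, so 18.9% were called where 17.6% of all features were. Among membrane MMPs, a feature whose human ortholog is MMP15 read 12.92 and 13.10 in the transgenic arrays against 11.77 and 12.16 in wild type (1.04 ± 0.19, adjusted p = 0.030 in limma). A feature with the human ortholog MMP23B went the other way, with 8.72 and 8.93 against 10.04 and 10.06 (-1.22 ± 0.15, adjusted p = 0.014). The group without calls among the members therefore holds calls in both directions once these features are counted. The genes mmp11a and mmp11b are named for stromelysin-3, a secreted MMP that furin activates inside the cell. The first read 7.02 and 7.06 against 8.32 and 8.28 and fell by 1.26 ± 0.14 (adjusted p = 0.012), whereas mmp11b differed by -0.16 ± 0.20 (adjusted p = 0.58). A feature with the human ortholog MMP19, dim in both genotypes, rose by 1.17 ± 0.24 (adjusted p = 0.036 in limma). The brighter feature of the same name did not pass (0.59 ± 0.18, adjusted p = 0.085).

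The collagenase gene mmp13b read 7.16 to 7.23 in the transgenic arrays and 7.31 ± 0.26 (SD, n = 2) in wild type (-0.12 ± 0.18, adjusted p = 0.67), beside the rise of 5.18 in the MMP13 feature. A gene known by a clone name, with the human ortholog ADAMTS8, rose from 8.23 and 8.41 to 9.67 and 9.91 (1.47 ± 0.16, adjusted p = 0.013), while the ADAMTS8 feature among the members fell by 2.71. A feature with the human ortholog ADAMTSL3, dim in wild type, rose by 1.36 ± 0.21 (adjusted p = 0.021 in limma). The sheddase genes adam10b (0.37 ± 0.16, adjusted p = 0.16) and adam17a (0.36 ± 0.14, adjusted p = 0.14) did not pass, and adam28 rose by 0.68 ± 0.14 (adjusted p = 0.038). The 7 features of adam9b differed by -0.04 to 0.52 and none passed (0 of 7 in limma, smallest adjusted p = 0.070, with 1 at an unadjusted p under 0.05). With these features added, which was decided after seeing the data, 19 features rose (22.9%) and 4 fell (4.82%) among members and relatives together. Over all features 10.3% rose and 7.28% fell.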
